A study of Mus musculus with 6 samples.

Results

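The genes of leukotriene synthesis described here are Pla2g4a, Alox5, Alox5ap, Lta4h and Ltc4s. They were chosen by gene symbol, as probe sets whose platform annotation gives exactly 1 of these symbols, out of 19938 genes with such a probe set. Each of the 5 genes had 1 probe set, so no choice among probe sets was needed. The genes were proposed with the difference between genotypes already known, so their own values are given as a description.

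Expression was measured on 6 arrays of double-positive (DP) thymocytes, the CD4+ CD8+ precursors of T cells in the thymus. The arrays came from 3 Hdac3 knockout (KO) samples, from the strain labelled LCK:Hdac3 KO, and 3 wild-type (WT) samples. All mice were untreated C57BL/6 animals aged 3 weeks. Hdac3 encodes a histone deacetylase of the NCoR/SMRT corepressor complexes. The strain name begins with Lck, a kinase gene of T cells, and the sources used here do not say which part of Hdac3 is lost. RNA of 2 mice of each genotype was pooled, as the series' design text puts it, and the mice behind each array are not given, so the spread between arrays, on which every p-value rests, may be technical.

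Leukotrienes are lipid mediators that myeloid cells make from arachidonic acid. Cytosolic phospholipase A2, encoded by Pla2g4a, frees arachidonate from membranes, and 5-lipoxygenase (Alox5) oxidises it to leukotriene A4 with the help of the membrane protein FLAP (Alox5ap), which presents the fatty acid to the enzyme. Leukotriene A4 hydrolase (Lta4h) then makes leukotriene B4, a neutrophil attractant, while leukotriene C4 synthase (Ltc4s) adds glutathione to make the first of the cysteinyl leukotrienes. Neutrophils, monocytes, mast cells and eosinophils are the usual sources, and thymocytes are not known as a main one.

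Deacetylase inhibitors are known to raise human ALOX5 transcription, and the human promoter holds a run of GC boxes bound by Sp1, which is why the mouse promoter windows are of interest here. The RefSeq table (GRCm38.p6) held a start for Pla2g4a, Alox5, Lta4h and Ltc4s, which is 4 of the 5 genes. The GC box was searched as GGGCGG, or CCGCCC on the other strand, in the 250 bases before each start. These letters were found once in the Alox5 window, with the first base 35 bases before the start, and not in the windows of the other 3 genes. Of all 32851 windows of this length in the table, 32.7% held a GC box. A match is a description of the letters and not a measured site. The Alox5 window lies at chr6:116461179-116461428 on the minus strand and the upstream Pla2g4a window at chr1:149961291-149961540, also on the minus strand. They are shown 5′ to 3′ as the oxidising enzyme with its GC box, in capitals, and as the one gene of the 5 that lay lower on every KO array, with none.
Alox5: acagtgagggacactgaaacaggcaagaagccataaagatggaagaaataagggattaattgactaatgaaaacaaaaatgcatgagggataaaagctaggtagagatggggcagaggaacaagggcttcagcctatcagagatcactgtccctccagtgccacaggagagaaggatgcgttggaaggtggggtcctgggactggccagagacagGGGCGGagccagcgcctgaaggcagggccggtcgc
Pla2g4a: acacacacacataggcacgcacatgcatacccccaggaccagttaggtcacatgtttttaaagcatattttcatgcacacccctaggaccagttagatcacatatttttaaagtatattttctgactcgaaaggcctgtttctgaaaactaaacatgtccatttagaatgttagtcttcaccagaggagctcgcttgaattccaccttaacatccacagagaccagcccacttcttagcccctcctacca

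The arrays carried their labels' cell type and genotype. The 7 measured DP markers, Cd4, Cd8a, Cd8b1, Rag1, Rag2, Dntt and Cd3e, had mean log2 values of 11.59 to 11.62 on the KO arrays and 11.44 to 11.69 on the WT arrays, and none of them passed the test. Hdac3 was 8.28, 8.32 and 8.32 on the KO arrays, against 9.40, 9.42 and 9.44 on the WT arrays. KO array 2 stood apart by its neutrophil transcripts. All 14 neutrophil markers were highest on that array, and 11 of them exceeded the highest WT array by more than 0.5 on the log2 scale. Their summed linear signal was 1091 on KO array 2, 347 and 359 on KO arrays 1 and 3, and 312 to 348 on the WT arrays. The spread of signal was also narrower on the KO arrays, with interquartile ranges of 3.06 to 3.25 in KO and 3.29 to 3.49 in WT on the log2 scale. In 10 bins of probe sets by signal, the median difference was 0.02 around a signal of 3.09 and 0.16 around 5.48. It was -0.17 around 7.78 and -0.04 around 10.08. What lies behind these shifts was not tested.

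Alox5ap, the FLAP gene, was the member with the largest difference. Its log2 values were 6.39, 6.76 and 6.18 on KO arrays 1 to 3, against 5.36, 5.30 and 5.37 on WT arrays 1 to 3. The groups did not overlap, and the lowest KO array lay 0.81 above the highest WT array. The mean was 6.44 ± 0.29 in KO and 5.34 ± 0.03 in WT (SD, n = 3 each), a difference of 1.10 (SE 0.14) or 2.14-fold. Of the 23410 probe sets tested, 90 differed by more in size. Probe sets of like signal, those in the same of 10 bins by mean over 6 arrays, had a median difference of 0.05. The middle 95% of them lay between -0.72 and 0.49. That mean includes the higher KO values of Alox5ap itself. In rank, Alox5ap stood at the 58.3rd, 63.4th and 55.7th percentile of the tested probe sets on the KO arrays, and at the 44.6th, 43.0th and 42.6th on the WT arrays. It thus lay above the median of the tested probe sets on the KO arrays and below it on the WT arrays. Detection calls were not used here, so how far its WT values lie above background is unknown.

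**Figure D1:**
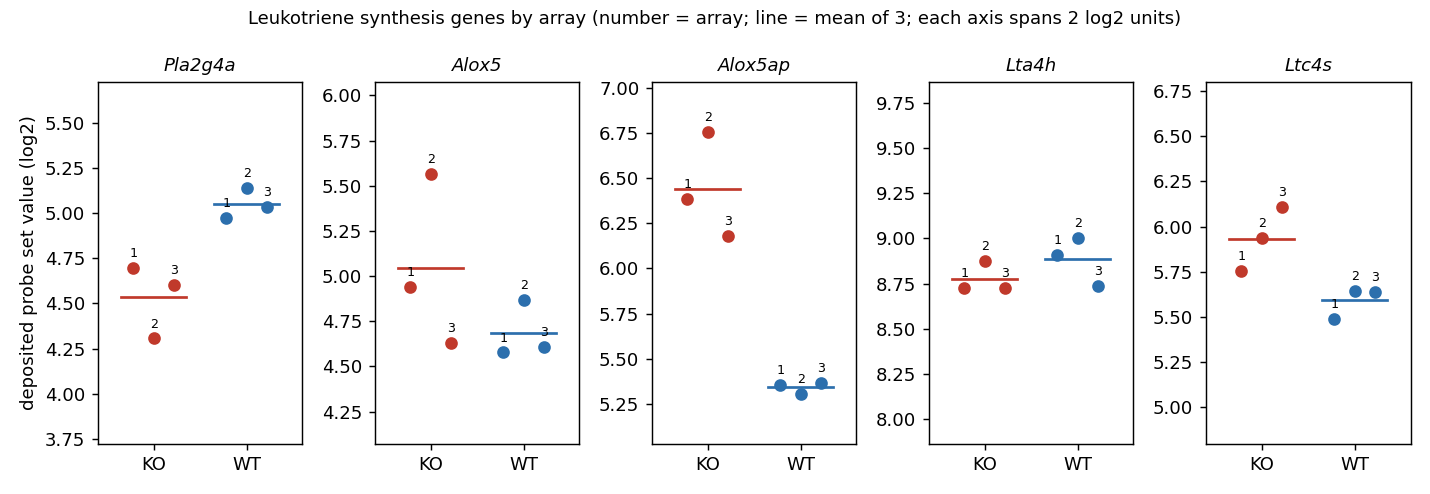
Deposited log2 values of the 5 leukotriene synthesis genes (vertical axes, each spanning 2 log2 units) on the 3 KO arrays (red, left) and the 3 WT arrays (blue, right); points carry the array number and lines are means. Alox5ap lies between 6.18 and 6.76 in KO and between 5.30 and 5.37 in WT, Pla2g4a lies lower on every KO array, and the groups overlap for Alox5 and Lta4h.

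KO array 2, with the high neutrophil markers, had the highest Alox5ap value. On KO arrays 1 and 3 the summed neutrophil signal was 347 and 359 and Alox5ap was 6.39 and 6.18, where the highest WT array had 348 and 5.37. Without KO array 2 the difference was 0.94 (SE 0.11), and 0.90 (SE 0.11) after quantile normalization as well. Monocyte and macrophage markers, 11 measured of 12, had a summed signal of 371 to 474 in KO and 335 to 381 in WT, with the KO maximum again on array 2. On that array 1 of the 11, Lyz2, exceeded the highest WT array by more than 0.5, at 6.65 against 4.65. Mast cell and basophil markers, all 8 measured, ran from 175 to 199 in KO and 157 to 181 in WT. Eosinophil markers, all 5 measured, ran from 117 to 139 in KO and 112 to 120 in WT. Dendritic cell markers, all 9 measured, were at 382, 387 and 436 on the KO arrays and 309, 333 and 373 on the WT arrays. Erythroid markers, 3 measured of 6, were at 102, 116 and 113 in KO and 78.5, 100.03 and 98.7 in WT. Both of these sums were higher on every KO array than on any WT array, as Alox5ap was. Of the 9 dendritic cell markers 1 lay above the median signal of all probe sets, and of the 3 erythroid markers 0 did. The median differences of these lists were 0.21 and 0.27. Probe sets in the bins around signals of 4.47 to 5.48 had median differences of 0.12 to 0.16. Whether the sums follow that shift was not tested. B cell markers (276 to 315 in KO and 278 to 322 in WT) and thymic stroma markers (734 to 771 in KO and 690.0 to 788 in WT) overlapped. Cd79b, Pecam1 and Ccr7 were the brightest B cell, thymic stroma and dendritic cell markers, and weigh most in those linear sums. Of the markers in these lists of other cell types, 2 rose, the eosinophil granule gene Prg2 and the erythroid factor Klf1. In the same lists 2 fell, the eosinophil receptor gene Il5ra and the epithelial gene Epcam (limma, adjusted p under 0.05). Of all probe sets 1.75% were higher and 4.04% lower at that threshold, and nothing is read from the marker counts. No marker is at 0, since array values have no true zero. The part of other cell types in the Alox5ap level was not tested. In such pooled RNA more cells of a type and more RNA per cell cannot be told apart.

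**Figure D2:**
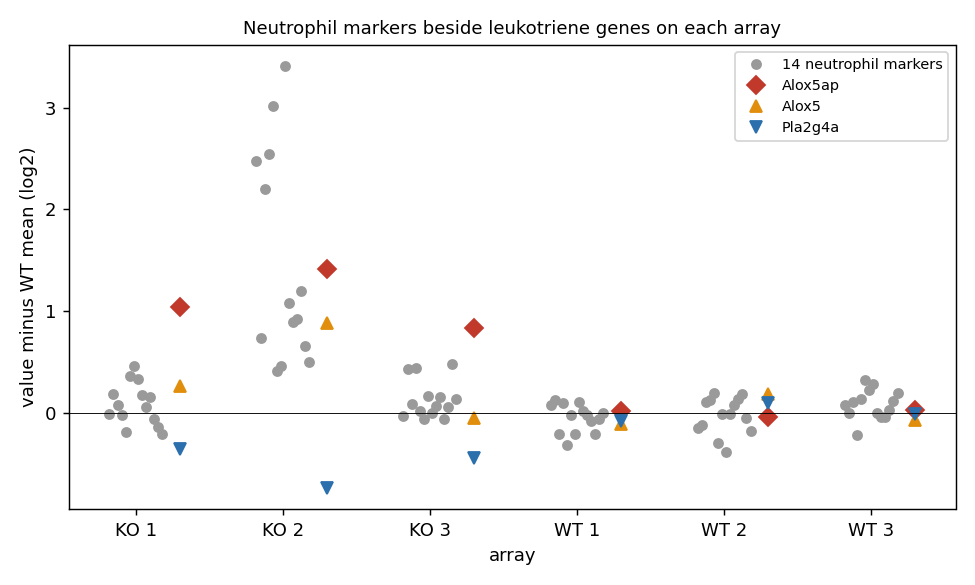
Value minus the WT mean (log2, vertical axis) on each array (horizontal axis) for 14 neutrophil markers (grey circles), Alox5ap (red diamonds), Alox5 (orange triangles) and Pla2g4a (blue triangles pointing down). All 14 markers are highest on KO array 2, as are Alox5ap and Alox5, and Alox5ap is above every WT array on KO arrays 1 and 3 too.

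Alox5, the enzyme that FLAP serves, did not show the same pattern. Its log2 values were 4.94, 5.57 and 4.63 on the KO arrays and 4.58, 4.87 and 4.61 on the WT arrays. Only KO arrays 1 and 2 lay above every WT array, KO array 3 fell within the WT range, and so the groups overlapped. The mean was 5.05 ± 0.48 in KO and 4.68 ± 0.16 in WT (SD, n = 3 each), a difference of 0.36 (SE 0.20, 95% interval -0.10 to 0.82). Without KO array 2, which carried the neutrophil markers, the difference was 0.10 (SE 0.14), and 0.014 (SE 0.14) after quantile normalization as well. Alox5 was dim, between the 27.4th and 44.3rd percentile on the KO arrays and between the 27.7th and 34.3rd on the WT arrays.

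Pla2g4a, which supplies the arachidonate, differed in the opposite direction to Alox5ap. Its log2 values were 4.70, 4.31 and 4.60 on the KO arrays, against 4.97, 5.14 and 5.04 on the WT arrays. Every KO array lay below every WT array, by at least 0.28. The mean was 4.53 ± 0.20 in KO and 5.05 ± 0.09 in WT (SD, n = 3 each), a difference of -0.51 (SE 0.12), where probe sets of like signal had a median difference of 0.15. The lowest value was that of KO array 2, and without it the difference was -0.40 (SE 0.11). Its percentile was 20.5 to 29.2 on the KO arrays and 36.0 to 39.7 on the WT arrays, so the probe set was dim in both genotypes.

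The enzymes that act on leukotriene A4 showed smaller differences. Lta4h, which also acts as an aminopeptidase and is widely expressed, had log2 values of 8.72, 8.88 and 8.73 in KO and 8.91, 9.0 and 8.74 in WT. Its difference was -0.11 (SE 0.10, 95% interval -0.34 to 0.12), close to the median of -0.13 for probe sets of like signal, and it changed sign to 0.0073 after quantile normalization. Lta4h stood at the 85.7th to 87.9th percentile in KO and the 85.6th to 87.4th in WT. Levels of different probe sets are not comparable, so the 5 genes were not ranked by level. Ltc4s, a relative of FLAP in the MAPEG family of membrane proteins, had 5.75, 5.94 and 6.11 in KO and 5.49, 5.64 and 5.64 in WT. The groups did not overlap, but the gap was 0.11 and the difference 0.34 (SE 0.11), where probe sets of like signal had a median difference of 0.16.

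Across all probe sets, 1355 of 23410, or 5.79%, differed between genotypes at an adjusted p under 0.05 (limma, Benjamini-Hochberg), with 1.75% higher and 4.04% lower in KO. The split depended on scaling, with 409 higher and 946 lower as deposited and 197 higher and 1863 lower after median centring. Of the 5 leukotriene synthesis genes, 2 were past that threshold, Alox5ap on the higher side and Pla2g4a on the lower, and nothing is read from this count because the genes were proposed with the contrast known. Groups did not overlap for 3 of the 5, against 30.0% of all probe sets. The share of all probe sets past the threshold was 2.02% without KO array 2, where 1 of the 5 genes, Alox5ap, was past it, and 4.00% after quantile normalization, where Alox5ap and Pla2g4a both were. Alox5ap was past the threshold in all 16 alternative settings, including all 6 that left out an array, with differences from 0.90 to 1.23. One of the 16, the filter on dim probe sets, kept probe sets with a mean over all 6 arrays above 5.77. Alox5ap, with a WT mean of 5.34, passed that filter only through its KO arrays, so this setting is no check of its call. Averaging over the probe sets of a gene is no check of the 5 genes either. Each had 1 probe set, so their differences could not change. Pla2g4a was past the threshold in 8 of 15, and when an array was left out only in the fit without KO array 1, at -0.60. The differences without KO array 2 or 3 or WT array 1, 2 or 3 were -0.40, -0.55, -0.55, -0.47 and -0.52.

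**Figure D3:**
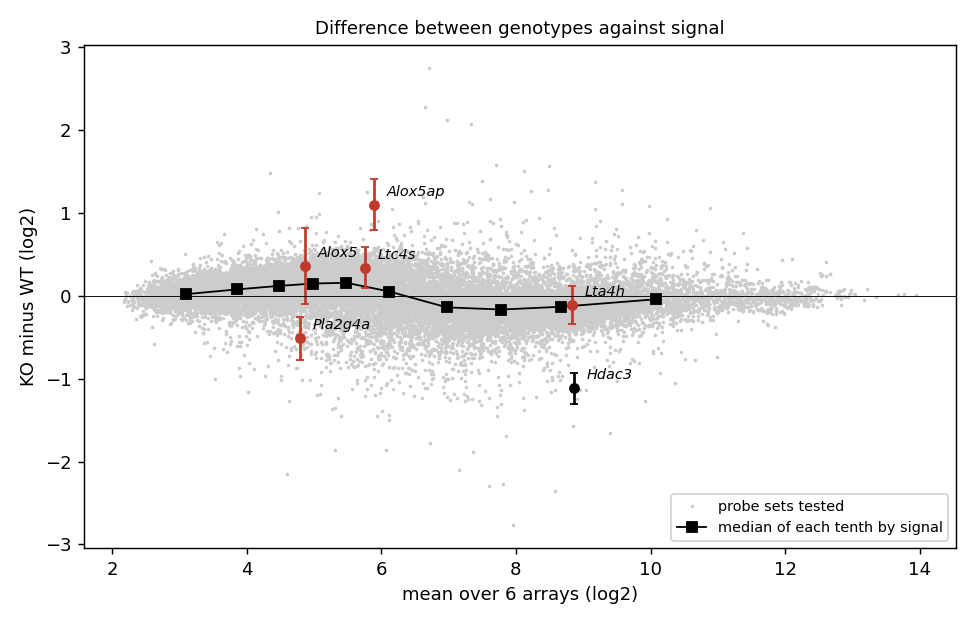
KO minus WT (log2, vertical axis) against the mean over 6 arrays (log2, horizontal axis) for 23410 probe sets (grey), with the median of each of 10 signal bins (black squares) and the leukotriene genes (red) and Hdac3 (black) with 95% intervals. Alox5ap at 1.10 lies above the middle 95% of the probe sets in its bin, which ends at 0.49, and Lta4h lies near the median line.

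**Figure D4:**
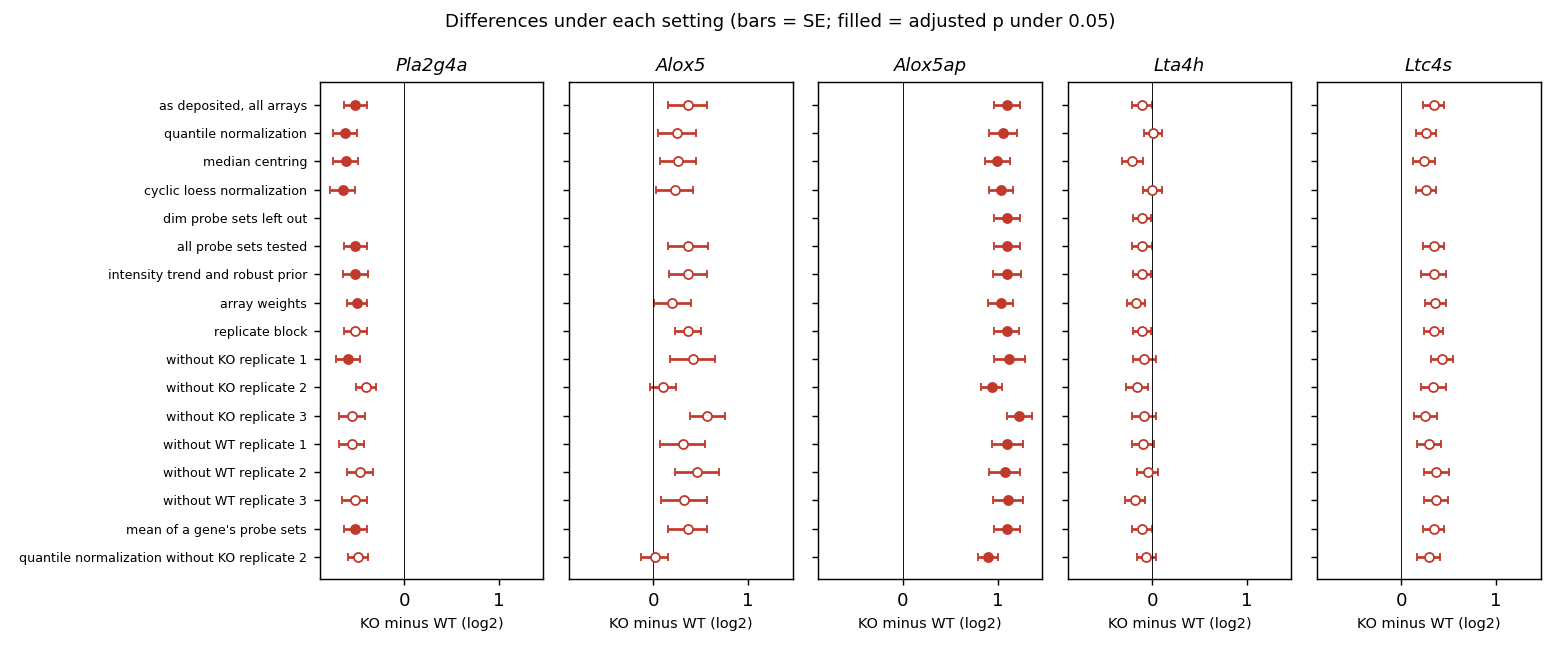
KO minus WT (log2, horizontal axes, bars are SE) of each gene under each setting (rows); filled points have an adjusted p under 0.05. Alox5ap stays between 0.90 and 1.23, while Alox5 is at 0.10 without KO array 2.

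The profiles nearest to Alox5ap over the 6 arrays were those of Gimap4, Traf1, Il12rb1, Tnf and Txk. Likeness was the root mean square difference between profiles centred on their own mean, among 9442 named genes with a signal above the median. It was 0.12 for Gimap4, an immune GTPase, with 7.77, 8.10 and 7.74 in KO and 6.68, 6.90 and 6.63 in WT. It was 0.14 for Traf1, an adaptor of tumour necrosis factor receptors, with 6.69, 6.75 and 6.62 in KO and 5.68, 5.60 and 5.64 in WT. The other values were 0.16 each for Il12rb1, an interleukin-12 receptor chain, Tnf, the cytokine itself, and Txk, a kinase of T cell receptor signalling, whose differences were 0.94, 1.19 and 0.92. Nearest to Pla2g4a were Tnfaip8l1 and Nme1, a nucleoside diphosphate kinase, with likeness values of 0.05 each and differences of -0.46 and -0.45. None of these genes was chosen for its function, and the likeness over 6 arrays is a description. The choice used the same arrays, so differences near that of the member follow from it. Traf1, with a WT mean of 5.64, lay above the median signal of 5.77 only through its KO arrays.

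Other genes of the pathway were taken as 9 lists of 79 genes, of which 73 had a probe set. In KO 2 were higher, 5 were lower and 66 did not pass, where 1.75% of all probe sets were higher and 4.04% lower. Their median difference was 0.09, against 0.02 over all probe sets. Of the 73 genes 27 lay above the median signal of all probe sets. The bins around signals of 3.09 to 5.48 had median differences of 0.02 to 0.16, so nothing is read from the 0.09. The 3 that remained past the threshold in every setting that tested them, with and without KO array 2, all lay lower in KO. They were the kinase gene Mapkapk2, the prostaglandin receptor gene Ptger4 and the phospholipase gene Plaat3. Plaat3 was dim and was removed by the filter on dim probe sets, so that setting gave it no value.

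**Figure D5:**
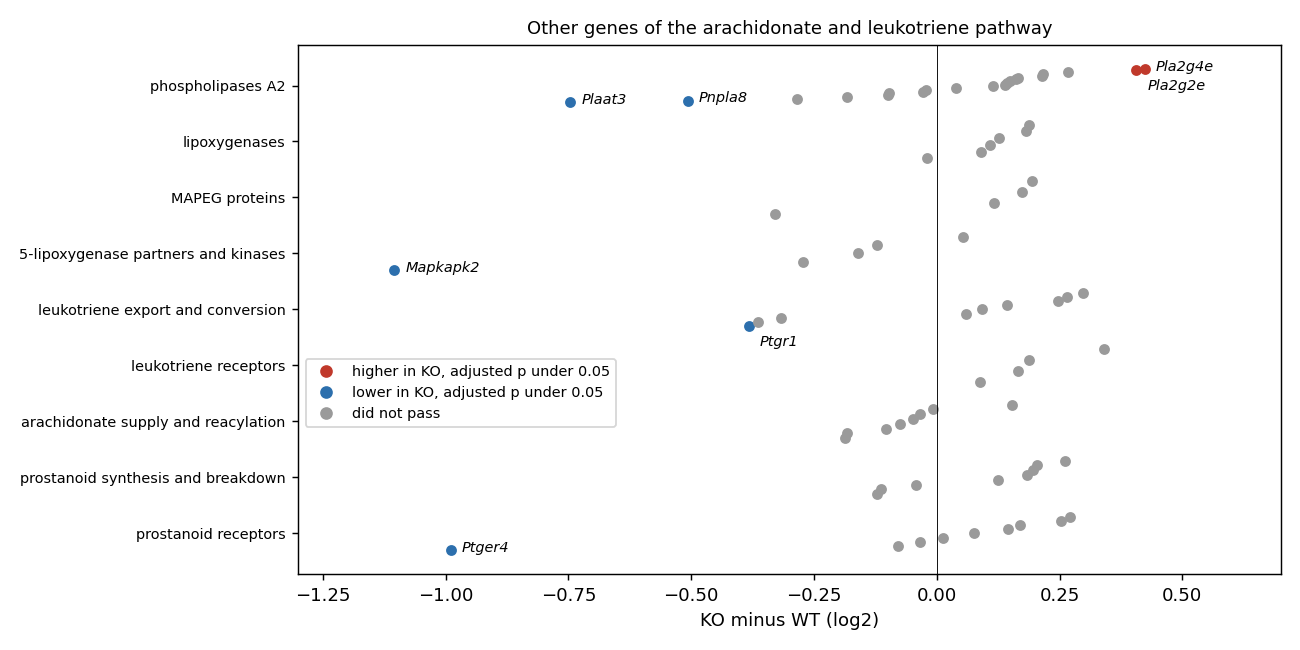
KO minus WT (log2, horizontal axis) of 73 genes in 9 lists (rows); red and blue points passed the test as higher and lower in KO, grey points did not. Mapkapk2, Ptger4 and Plaat3 lie lowest, at -1.10, -0.99 and -0.75.

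Mapkapk2 encodes MK2, the kinase downstream of p38 that phosphorylates human 5-lipoxygenase. It had log2 values of 6.81, 6.36 and 6.92 on the KO arrays, against 7.86, 7.74 and 7.80 on the WT arrays. All KO arrays were lower, with a mean of 6.70 ± 0.30 in KO and 7.80 ± 0.06 in WT (SD, n = 3 each). It fell by 1.10 on the log2 scale (SE 0.14, limma adjusted p = 0.0032), and without KO array 2 the difference was -0.94 (limma adjusted p = 0.0052). The other 4 genes of this list of partners and kinases did not pass, where 5.79% of all probe sets did. Among them Mapk14, the p38 kinase that activates MK2, differed by -0.27 (SE 0.09, limma adjusted p = 0.10), and Cotl1, the actin-binding protein known to bind human 5-lipoxygenase, by 0.05 (SE 0.09). Both were singled out after their values were seen.

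Among 20 measured phospholipases A2 other than Pla2g4a, 2 rose, 2 fell and 16 did not pass, beside the 1.75% higher and 4.04% lower of all probe sets. Their median difference was 0.13, and 6 of the 20 lay above the median signal of all probe sets. Plaat3, a phospholipase of adipose tissue listed under its older name Pla2g16, had 4.72, 4.71 and 4.74 in KO, against 5.56, 5.23 and 5.62 in WT. It fell by 0.75 (SE 0.12, limma adjusted p = 0.0076), lower on all 3 KO arrays. By its mean over all arrays Plaat3 stood at the 37.2nd percentile of the tested probe sets. Pnpla8, a calcium-independent phospholipase of mitochondria and peroxisomes, fell by 0.51 (SE 0.12, limma adjusted p = 0.043). Pla2g2e, a secreted enzyme, and Pla2g4e, a paralog of Pla2g4a, rose by 0.41 (SE 0.10, limma adjusted p = 0.045) and 0.42 (SE 0.09, limma adjusted p = 0.032). Pla2g4e was dim, at the 18.7th percentile. With no detection calls, how far Plaat3 and Pla2g4e lie above background is unknown. The calls of Pnpla8, Pla2g2e and Pla2g4e were lost after quantile normalization and in the fits without KO array 1, 2 or 3 or WT array 1 or 2, and that of Pla2g2e also without WT array 3.

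Of 9 measured genes for leukotriene export and conversion, Ptgr1, which oxidises leukotriene B4 to a less active form, fell by 0.38 and 8 did not pass. Its values were 6.52, 6.42 and 6.39 in KO and 6.77, 6.94 and 6.77 in WT (SE 0.09, limma adjusted p = 0.047), and the call was lost after quantile normalization and in 5 of the 6 fits that left out an array, all but that without WT array 3. None of the 4 measured leukotriene receptor genes passed. Ltb4r1, the high-affinity leukotriene B4 receptor, singled out after its values were seen, had 4.41, 4.61 and 4.94 in KO and 4.31, 4.34 and 4.28 in WT, a difference of 0.34 (SE 0.13, limma adjusted p = 0.15). No gene passed among 6 further lipoxygenases, 4 MAPEG proteins and 8 genes of arachidonate supply. In these lists the named genes were Mgst2, a glutathione transferase that can make leukotriene C4, at -0.33 (SE 0.14), Mgst3 at 0.19 (SE 0.12), the elongase Elovl5 at -0.18 (SE 0.09) and the desaturase Fads2 at -0.19 (SE 0.14).

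In the prostanoid branch, which draws on the same arachidonate, 1 of 9 measured receptor genes passed, where 5.79% of all probe sets did. Ptger4, the EP4 receptor for prostaglandin E2, had log2 values of 6.75, 6.52 and 6.79 on the KO arrays, against 7.82, 7.70 and 7.52 on the WT arrays. The means were 6.69 ± 0.14 in KO and 7.68 ± 0.15 in WT (SD, n = 3 each), and it fell by 0.99 (SE 0.11, limma adjusted p = 0.0022), lower on all 3 KO arrays. Without KO array 2 the difference was -0.91 (limma adjusted p = 0.0092). The other 8 prostanoid receptors did not pass, nor did the 8 measured genes of prostanoid synthesis and breakdown, where Ptgis, the prostacyclin synthase, differed by 0.26 (SE 0.14) and Ptges3 by -0.11 (SE 0.10).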

How the data were processed

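Expression in DP thymocytes was measured on Affymetrix whole-transcript arrays, per the labels' protocols. The authors deposited 1 log2 value per probe set and array, a unit read from the range of the values. Background correction, normalization and probe summary: not given in the sources used here. Of 28853 probe sets, the 23410 annotated with any gene entered a limma 3.58.1 fit in R 4.3.3 (lmFit, eBayes, 2 group means). Two-sided p-values were adjusted by Benjamini-Hochberg over all of them, with a threshold of 0.05. Each difference is KO minus WT, with its SE. The arrays' number limits the precision: the median standard error was 0.11. A gene stood for its brightest probe set, and genes were matched by platform symbol or Entrez identifier. With 3 arrays a group the smallest exact permutation p is 0.1, so no such test was run. Pathway genes were named if called, or as the 2 with the smallest p among the brighter genes of a list with none called. The members and lists were chosen with earlier results of these data known. The fit was tested on simulated data. Same-numbered arrays of the genotypes deviated with correlations of 0.25, -0.07 and -0.03, so the numbers were not taken as pairs. Alternatives were quantile, median and cyclic loess normalization, a filter on dim probe sets, all probe sets, an intensity trend with robust prior, array weights, the replicate block, each array left out and averaging over all probe sets of a gene. Quantile normalization without KO array 2 was added after seeing the data.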

Additional observations from a re-analysis of the deposited data

How the results depend on the processing

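Alox5ap kept its direction and its call in all 16 alternatives (0.90 to 1.23), and Ltc4s and Alox5 kept a positive difference that was not called. The filter on dim probe sets is no check of Alox5ap, which passed that filter only through its KO arrays. Averaging over probe sets is no check of any of the 5 genes, since each had 1 probe set. Lta4h changed sign to 0.0073 after quantile and 0.0035 after cyclic loess normalization. Pla2g4a lost its call with the replicate block (-0.51), after quantile normalization without KO array 2 (-0.49) and when any array other than KO array 1 was left out, with leave-one-out differences from -0.60 to -0.40. Leave-one-out ranges were 0.94 to 1.23 for Alox5ap, 0.10 to 0.57 for Alox5, -0.18 to -0.05 for Lta4h and 0.25 to 0.43 for Ltc4s. The count of 7 called pathway genes became 3 after quantile normalization, 3 after cyclic loess, 4 with all probe sets tested, 3 after quantile normalization without KO array 2, and 3 to 6 with an array left out. The count of 1355 called probe sets became 2060 after median centring, 2285 with array weights, 437 after quantile normalization without KO array 2, and, with 1 array left out, 474 (KO array 2) to 1946 (WT array 3). The causes were not tested. The replicate block changed no other call among the 5 genes. The probe sets of Alox5, Ltc4s and Pla2g4a, with means over all arrays below 5.77, were removed by the filter on dim probe sets. That setting thus gave them no value. With no detection calls, how far these 3 lie above background is unknown. The same holds for Alox5ap on the WT arrays, where its mean of 5.34 was below the cut of that filter, 5.77.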
